A study of Homo sapiens with 12 samples.

Results

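The midbrain-hindbrain organizer genes were followed in midbrain-patterned human neural progenitors with and without induced miR-10. The 10 genes, of 25718 in the count tables, were EN1, EN2, GBX2, PAX2, PAX5, PAX8, FGF8, FGF17, FGF18 and OTX1, taken by name. For a gene listed with several RefSeq transcripts, values come from the transcript with the most counts on average. Of the 10 genes, 6 had a mean of more than 10 counts over the 12 samples and were tested. The other 4 (PAX2, PAX5, PAX8 and FGF8) held 0 to 2 counts over all 12 samples together.

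The 12 samples formed 4 groups of 3, all grown from H9, a human embryonic stem cell line long established in culture. All cells carried a tetracycline-regulated lentiviral vector, miR10a-GFP or miR10b-GFP, which had been added at an MOI (multiplicity of infection) of 50. Patterning to the ventral midbrain used CT0.8 and Shh at 200 ng/ml. The groups labelled miR10a doxy and miR10b doxy received doxycycline from day 11 and were harvested on day 14, whereas the groups labelled miR10a NOdoxy and miR10b NOdoxy received none. Controls carried the same vector as the cells they were compared with, and no GFP-only vector is among these samples, so miR-10, GFP and doxycycline itself cannot be told apart. The cultures were not sorted for transduced cells as far as the labels say. The labels number the replicates but do not say whether they were separate cultures, so p-values measure only the spread between these samples, which may be technical.

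The isthmic organizer forms in the neural tube where the midbrain meets the hindbrain. Rostral cells express OTX genes and caudal cells GBX2, and the 2 repress each other, which places the boundary. Cells at the boundary secrete FGF8, FGF17 and FGF18, cells just rostral to it secrete WNT1, and PAX2, PAX5, PAX8, EN1 and EN2 are expressed across it. EN1 and EN2 are homeodomain repressors that dopaminergic neurons of the midbrain keep expressing.

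Total counts per sample ran from 10545487 to 12078812 in miR-10a cells with doxycycline and from 12443157 to 14165426 without it. In miR-10b cells they ran from 11655354 to 12026785 with doxycycline and from 12589750 to 13499811 without it. Within each vector the totals of the controls all lay above those of the doxycycline samples. MIR10A had 711 to 731 CPM (counts scaled to the sample's total) in miR-10a cells with doxycycline and 0.641 to 1.37 without it. MIR10B had 2541 to 2662 CPM in miR-10b cells with doxycycline and 2.89 to 4.45 without it. Replicate 2 of the miR-10b doxycycline group stood apart from the other replicates of that group, with a chi-square of 3.19 and 4.12 per degree of freedom against them, where all other replicate pairs lay between 1.23 and 1.94.

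The seed of miR-10a, bases 2 to 8, sets which letters in an mRNA it can pair with, and it is printed here to locate matches in the organizer genes. The capitals mark the seed of hsa-miR-10a-5p (RefSeq, GRCh38.p14, chr17:48579904-48579926, minus strand). The mature sequence of hsa-miR-10b-5p is not printed.
hsa-miR-10a-5p: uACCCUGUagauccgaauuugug

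The letters searched were ACAGGGTA (8mer), ACAGGGT (7mer-m8), CAGGGTA (7mer-A1) and CAGGGT (6mer), on the transcript strand of the longest annotated 3′UTR of each gene (GENCODE on GRCh37, the assembly that hg19 names). The shorter letters lie within the longer ones, and each gene was counted under its longest match. Of 9269 tested genes with such a 3′UTR, 2.7% held the 8mer, 14.7% the 7mer-m8, 5.1% the 7mer-A1 and 21.4% the 6mer as longest match, so 43.9% held a match of some kind. Of the 6 tested organizer genes, EN2 and OTX1 held one. In OTX1 a 7mer-A1 lay at chr2:63284506-63284512 and a 7mer-m8 at chr2:63284567-63284573, both on the plus strand. In EN2 there were 2 matches, both 6mers on the plus strand, at chr7:155255943-155255948 and chr7:155256470-155256475. These 4 sites are shown with flanking bases, with the matching letters in capitals, because the genes that carry them were measured here.
OTX1 7mer-A1: aacagacaagtCAGGGTAcagaggtggggg
OTX1 7mer-m8: ccggtctaagcACAGGGTcgcagttccagt
EN2 6mer, upstream: agaggggacttcCAGGGTccttgggccagt
EN2 6mer, downstream: atgggtgccagcCAGGGTcccagaaatgag

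EN1, GBX2, FGF17, FGF18, PAX2 and FGF8 held none of these letters in the 3′UTR searched. Among the tested genes, those with a match also had the longest 3′UTRs searched, 2144 bases in EN2 and 1520 in OTX1, against 560 to 821 in the other 4. PAX5 held 7 matches and PAX8 held 1, but neither gene was measured. A match of letters is a description and not a shown site of binding.

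PAX2 and PAX8, paired-domain factors expressed across the boundary, were at 0 counts in all 12 samples on each of their 5 and 4 transcripts. PAX5 held 1 count in miR10a doxy replicate 3 and 1 in miR10a NOdoxy replicate 1, both on 1 of its 13 transcripts. FGF8, the main organizing signal of the isthmus, held 1 count in replicate 1 of the miR-10a doxycycline group, on 1 of its 5 transcripts. The limit that a count of 0 allows, 3 counts, is 0.212 to 0.284 CPM in these samples. That limit does not bound the expression of these 4 genes, because the counting appears to leave out reads shared by several transcripts. Genes with 1 transcript were at 0 in all samples in 15.8% of cases, against 26.2% of genes with 3 to 4 transcripts and 26.6% of genes with 5 or more. Of the 6 genes that passed the filter, 5 have 1 transcript and OTX1 has 2.

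Among the 6 measured genes, EN1 was the most abundant per length. Its mean over the 12 samples was 33.8 RPKM (CPM per kilobase of transcript), which lay at percentile 79.1 of the 11451 tested genes. GBX2 followed with 10.2 RPKM (percentile 56.5), FGF18 with 3.71 (40.2), EN2 with 2.03 (31.2), FGF17 with 1.72 (28.3) and OTX1 with 0.914 (18.5). Genes with several transcripts may rank too low, since shared reads appear to be left out, so percentiles of genes with 1 transcript may be too high. The ranges over samples of EN1 (29.4 to 37.6 RPKM), GBX2 (7.26 to 13.8 RPKM) and FGF18 (2.97 to 4.32 RPKM) did not touch their neighbours. Those of EN2 (1.56 to 2.75 RPKM) and FGF17 (1.17 to 2.79 RPKM) overlapped, and so did those of FGF17 and OTX1 (0.53 to 1.38 RPKM). The value of OTX1 divides the reads of 1 of 2 transcripts by the full transcript length, so its place below FGF17 is not a comparison of the 2 genes. The engrailed pair were unequal, and EN1 exceeded EN2 by 12.6 to 21.1 times in RPKM over the 12 samples.

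**Figure D1:**
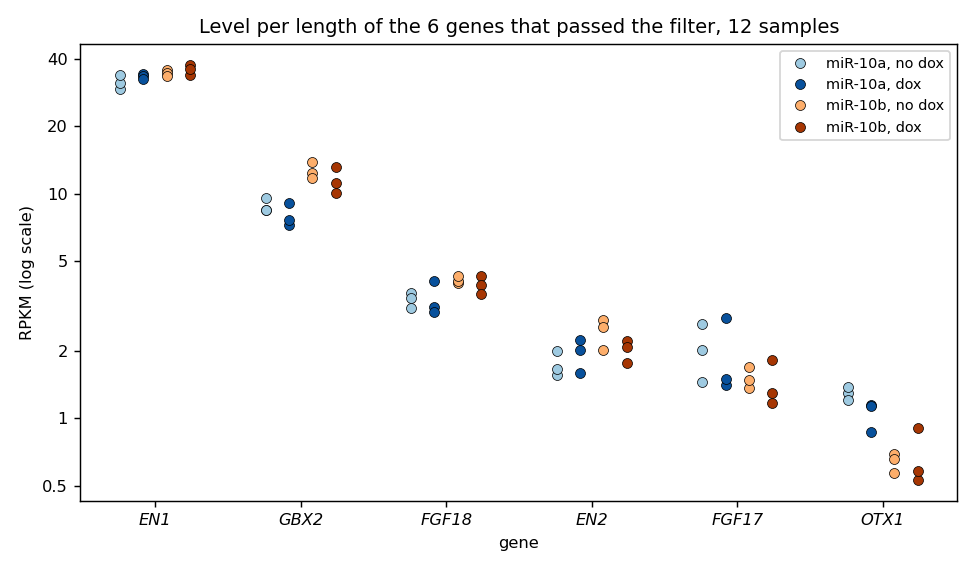
Level per length (RPKM, log scale) of the 6 measured genes in each of the 12 samples, coloured by vector and doxycycline. EN1 lay between 29.4 and 37.6 RPKM in all samples and OTX1 between 0.53 and 1.38 RPKM. The dots of EN1, GBX2 and FGF18 stay apart from those of other genes, whereas EN2 overlaps FGF17 and FGF17 overlaps OTX1.

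Doxycycline changed none of the 6 genes past the threshold, with either vector. By edgeR's quasi-likelihood test, adjusted after Benjamini and Hochberg, 0 of 6 passed an adjusted p of 0.05 in miR-10a cells, where 1.21% of the 11451 tested genes did, and 0 of 6 in miR-10b cells, where 15.3% did. In the average of both effects it was again 0 of 6, against 13.9% of all genes. DESeq2 also called 0 of 6 in each of these. In edgeR 0 of 6 had an unadjusted p under 0.05. Of the 11451 tested genes, 1278 did in miR-10a cells, 3161 in miR-10b cells and 3038 in the average. Over the 6 genes the median log2 fold change was -0.06 in miR-10a cells, beside 0.01 over all tested genes, and -0.08 in miR-10b cells, beside 0.02. Without replicate 2 of the miR-10b doxycycline group, the count in miR-10b cells was also 0. In bulk samples, fewer cells that express a gene and less RNA per cell cannot be told apart.

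EN1 (NM_001426, chr2:119599747-119605224, minus strand) showed little spread. It had 101, 99.2 and 96.2 CPM in the 3 miR-10a samples with doxycycline and 87.2, 92.7 and 99.9 CPM in the 3 without it. In miR-10b cells it had 100.2, 111 and 107 CPM with doxycycline and 105, 102 and 99.5 CPM without it. Both pairs of groups overlapped, since in each vector at least 1 control lay within the range of the doxycycline samples. On the log2 scale the doxycycline effect was 0.08 with miR-10a (standard error 0.05) and 0.05 with miR-10b (standard error 0.05), with adjusted p-values of 0.543 and 0.522 by edgeR. Averaged over both vectors, the 95% interval of the fold ran from 0.9996 to 1.10.

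EN2 (NM_001427, chr7:155250824-155257526, plus strand) rested on 65 to 126 counts per sample. It had 7.61, 5.38 and 6.83 CPM with doxycycline and 5.30, 5.65 and 6.73 CPM without it in miR-10a cells. In miR-10b cells it had 5.97, 7.46 and 7.07 CPM with doxycycline and 6.83, 9.33 and 8.64 CPM without it. The samples overlapped in both vectors, and the estimates had opposite signs, 0.16 (standard error 0.15) on the log2 scale with miR-10a and -0.28 (standard error 0.14, adjusted p = 0.187) with miR-10b. The difference between the vectors was -0.44 (standard error 0.21), with an unadjusted p of 0.0417 and an adjusted p of 0.346 by edgeR. EN2 was the one organizer gene of 6 with an unadjusted p under 0.05 there, against 1510 of all 11451 tested genes. The adjusted threshold was passed by 0 of 6, against 1.96% of all tested genes.

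GBX2 (NM_001485, chr2:237073879-237077029, minus strand), the caudal homeobox gene of the boundary, had 9.69, 10.2 and 12.1 CPM with doxycycline and 11.3, 12.8 and 11.3 CPM without it in miR-10a cells. In miR-10b cells it had 14.9, 17.5 and 13.4 CPM with doxycycline and 16.6, 18.4 and 15.7 CPM without it. The groups overlapped in both vectors, with a log2 fold change of -0.15 in each (standard errors 0.12 and 0.10). The average effect was a fold of 0.901 (95% interval 0.809 to 1.00, adjusted p = 0.203 by edgeR). On the opposite strand, GBX2-AS1 shares 221 exonic bases with GBX2. Whether the counting used strand is not given in the sources used here.

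OTX1 (chr2:63277192-63284971, plus strand), a rostral homeobox gene of forebrain and midbrain, had 3.26, 2.48 and 3.22 CPM with doxycycline and 3.70, 3.95 and 3.45 CPM without it in miR-10a cells. All 3 miR-10a samples with doxycycline lay below all 3 controls. This was the one organizer gene of 6 whose groups did not overlap there, against 18.2% of the tested genes, and its change of -0.32 on the log2 scale (standard error 0.19) did not pass the threshold (adjusted p = 0.563, edgeR). In miR-10b cells OTX1 had 1.51, 2.57 and 1.66 CPM with doxycycline and 1.99, 1.63 and 1.88 CPM without it. These groups overlapped, with replicate 2 of the doxycycline group above all other miR-10b samples, and the log2 fold change was 0.06 (standard error 0.24). Without that replicate, which also stood apart in its counts over all genes, it was -0.20 (adjusted p = 0.741, edgeR). Its used transcript, NM_001199770, held 18 to 56 counts per sample, and the other, NM_014562, held 5 to 11. In miR-10b cells 0 of 6 genes had groups that did not overlap, against 28.7% of all tested genes.

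FGF17 (NM_003867, chr8:21899909-21906320, plus strand) and FGF18 (NM_003862, chr5:170846651-170884630, plus strand) encode secreted FGFs of the FGF8 subfamily. FGF17 had 1.72, 1.82 and 3.41 CPM with doxycycline and 3.21, 2.47 and 1.76 CPM without it in miR-10a cells, and 1.43, 2.23 and 1.58 CPM with and 1.67, 2.07 and 1.80 CPM without it in miR-10b cells. With 17 to 40 counts per sample it was the least precise of the 6 genes, and the 95% interval of its average fold was 0.717 to 1.21. FGF18 had 8.06, 6.21 and 5.88 CPM with doxycycline and 7.15, 6.78 and 6.17 CPM without it in miR-10a cells. In miR-10b cells it had 8.50, 7.81 and 7.07 CPM with doxycycline and 7.94, 8.07 and 8.56 CPM without it. The groups of both genes overlapped in both vectors, and the average fold of FGF18 was 0.976 (95% interval 0.857 to 1.11). Exact permutation of 3 against 3 samples cannot go below p = 0.1, and among the 12 tests of 6 genes in 2 vectors only OTX1 with miR-10a reached it.

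**Figure D2:**
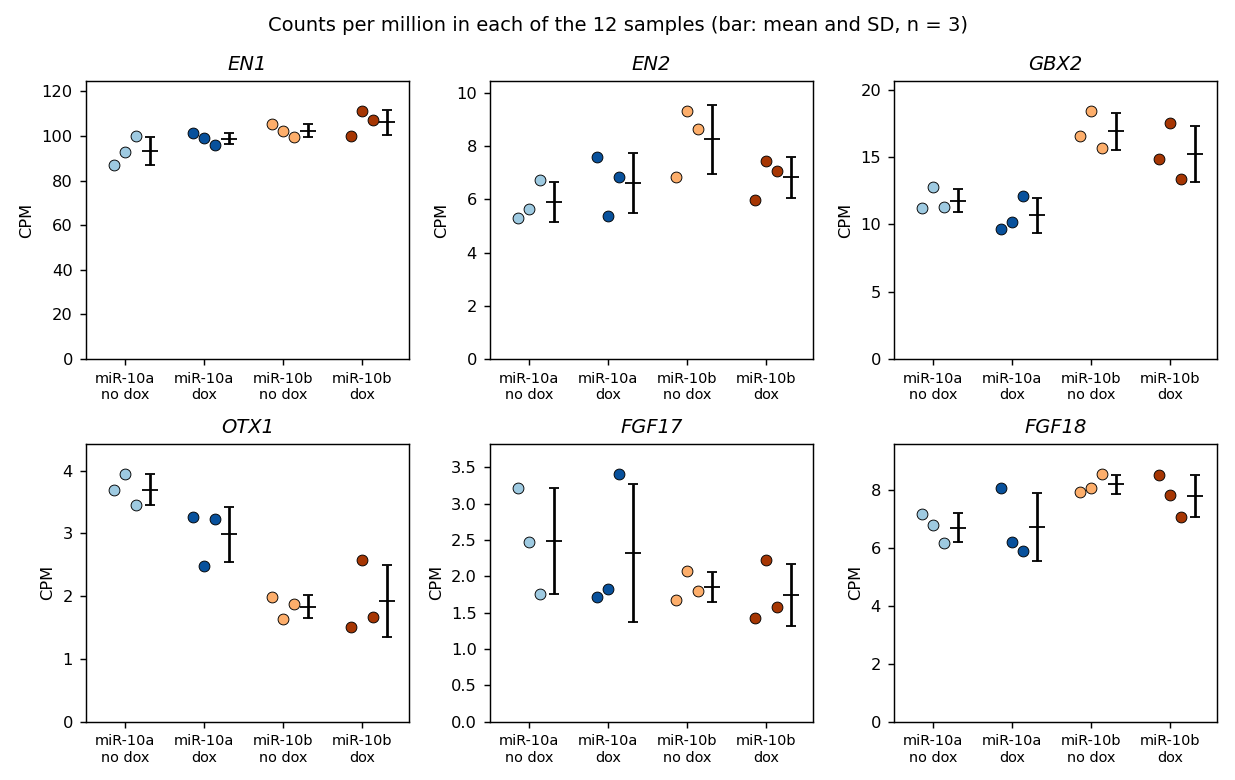
CPM of the 6 measured genes in each sample, by vector and doxycycline (dots, 3 per group; bars, mean and SD). Doxycycline samples mix with their controls except for OTX1 in miR-10a cells, whereas GBX2 is higher and OTX1 lower in the uninduced miR-10b samples than in the uninduced miR-10a samples.

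The cells with the 2 vectors differed in these genes without doxycycline. In the uninduced samples, GBX2 and EN2 were higher and OTX1 was lower in miR-10b cells than in miR-10a cells, each past an adjusted p of 0.05. These 3 of 6 stood beside 14.1% of all tested genes by the same test, and groups did not overlap for 4 of 6 (EN2, FGF18 and GBX2 above, OTX1 below) beside 30.1% of all tested genes. Each vector was carried by cultures of its own, so vector, transduction and culture cannot be told apart in this comparison, and it shares its samples with the doxycycline comparisons above.

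GBX2 was 16.9 ± 1.40 CPM (SD, n = 3) in uninduced miR-10b cells and 11.8 ± 0.868 CPM (SD, n = 3) in uninduced miR-10a cells. This was 1.43-fold higher (95% interval 1.24 to 1.65, adjusted p = 0.000278, edgeR). EN2 was 8.27 ± 1.29 CPM against 5.89 ± 0.745 CPM (SD, n = 3 each), 1.41-fold higher (95% interval 1.15 to 1.72, adjusted p = 0.0129, edgeR). The EN2 call was lost without replicate 1 or 2 of the uninduced miR-10a group (adjusted p = 0.0778 and 0.0637, edgeR) and without replicate 2 or 3 of the uninduced miR-10b group (adjusted p = 0.11 and 0.0585, edgeR). OTX1 was 1.83 ± 0.183 CPM against 3.70 ± 0.254 CPM (SD, n = 3 each), a fold of 0.494 (95% interval 0.371 to 0.658, adjusted p = 0.000333, edgeR). OTX1 also stayed past the threshold with the counts of both transcripts summed, at a log2 fold change of -0.95 (adjusted p = 0.000224, edgeR).

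EN1 was 102 ± 2.93 CPM in uninduced miR-10b cells and 93.3 ± 6.38 CPM in uninduced miR-10a cells (SD, n = 3 each), a log2 difference of 0.13 (standard error 0.05, adjusted p = 0.0525, edgeR). It passed the threshold under some of the alternative settings and not under others. FGF18 was 8.19 ± 0.327 CPM against 6.70 ± 0.496 CPM and FGF17 1.85 ± 0.207 CPM against 2.48 ± 0.726 CPM (SD, n = 3 each). The log2 differences of the 2 FGF genes were 0.29 (standard error 0.13, adjusted p = 0.133) and -0.42 (standard error 0.25, adjusted p = 0.323) by edgeR, neither past the threshold.

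The same comparison among the induced samples was added after the uninduced values had been seen. GBX2 was again higher in miR-10b cells, 15.3 ± 2.08 CPM against 10.7 ± 1.29 CPM (SD, n = 3 each), 1.43-fold (95% interval 1.22 to 1.68, adjusted p = 0.000729, edgeR). OTX1 was again lower, 1.92 ± 0.574 CPM against 2.99 ± 0.438 CPM (SD, n = 3 each), a fold of 0.645 (95% interval 0.471 to 0.883, adjusted p = 0.0429, edgeR). The OTX1 call was lost with DESeq2 (adjusted p = 0.129) and in edgeR without miR10a doxy replicate 1 or 3 (adjusted p = 0.144 and 0.129) or miR10b doxy replicate 1 or 3 (adjusted p = 0.19 and 0.136). Without replicate 2 of the miR-10b doxycycline group, GBX2 differed by 0.41 (adjusted p = 0.00967) and OTX1 by -0.90 (adjusted p = 0.00904) on the log2 scale by edgeR. EN2 differed by 0.06 on the log2 scale (standard error 0.15), EN1 by 0.10 (standard error 0.05), FGF18 by 0.21 (standard error 0.13) and FGF17 by -0.39 (standard error 0.28), none past the threshold. Without miR10a doxy replicate 3, the difference of FGF17 was -0.024. Thus 2 of 6 genes passed, against 18.4% of all tested genes, and 1 of 6, GBX2, had groups that did not overlap, against 31.4%.

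**Figure D3:**
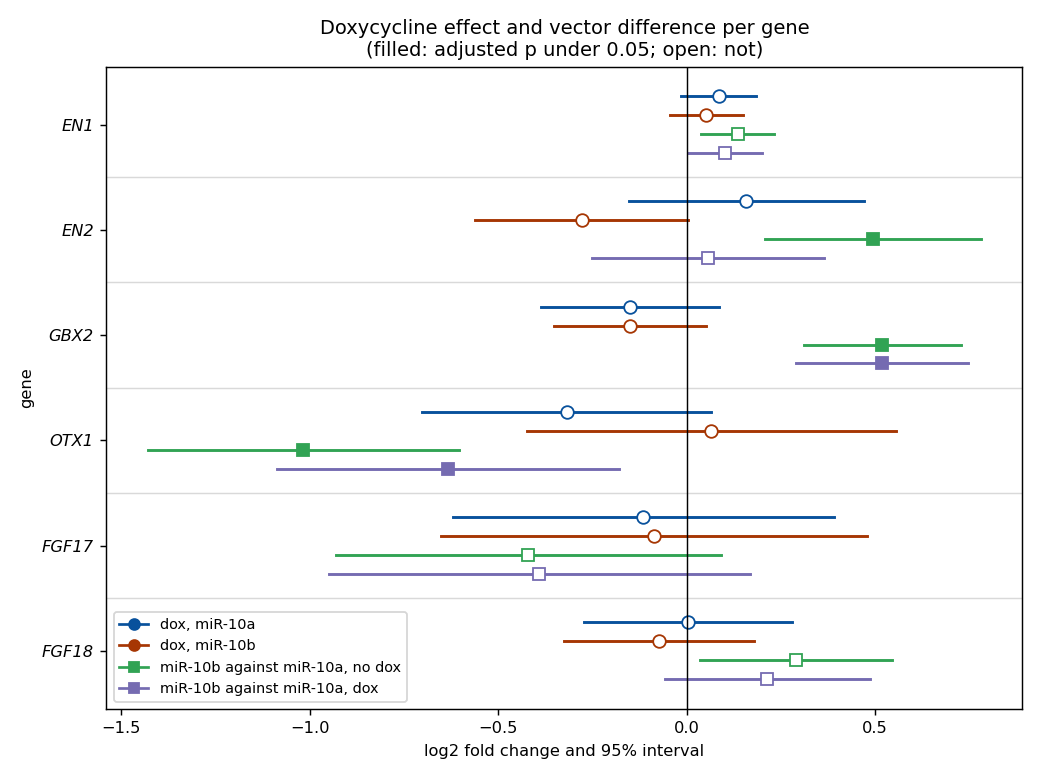
Log2 fold changes with 95% intervals for the 6 measured genes under 4 comparisons, the doxycycline effect with each vector (circles) and miR-10b against miR-10a cells without and with doxycycline (squares). The filled symbols, adjusted p under 0.05, are the squares of GBX2 and OTX1 in both states and of EN2 without doxycycline, and all circles are open.

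GBX2 and OTX1 mark opposite sides of the boundary, and their ratio in CPM was compared sample by sample. GBX2 counts exceeded those of OTX1 by 2.97 to 4.10 times in the 6 miR-10a samples and by 6.80 to 11.3 times in the 6 miR-10b samples. No miR-10a sample reached the lowest miR-10b sample, whether or not doxycycline was present. OTX1 has 2 transcripts, and its counts appear to leave out reads that both share. The size of the ratio is therefore no measure of how far GBX2 exceeded OTX1 in the cells. The ratio was looked at after the 2 genes had been found to differ, so it is a description with no test.

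**Figure D4:**
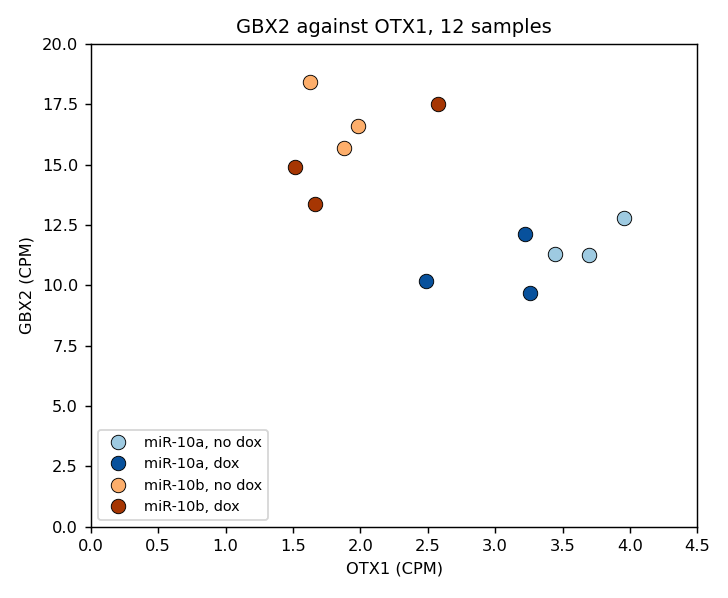
GBX2 against OTX1 in CPM, 1 dot per sample, coloured by vector and doxycycline. The 6 miR-10b samples lie higher in GBX2 than the 6 miR-10a samples and all but 1 of them lower in OTX1, replicate 2 with doxycycline being at 2.57 CPM where the lowest miR-10a sample is at 2.48 CPM, and within each vector the doxycycline samples lie among or near their controls.

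Markers of the labelled identity moved with the same vector difference. All 9 floor plate and ventral midbrain markers were measured. Of these, 7 were higher in uninduced miR-10b cells than in uninduced miR-10a cells (among them CORIN, FERD3L, FOXA1, LMX1A, SHH and SPON1), NKX6-1 was lower and FOXA2 was not called. Their summed level was 2160 to 2194 CPM in uninduced miR-10a samples and 3115 to 3145 CPM in uninduced miR-10b samples, and 2282 to 2345 CPM and 3299 to 3364 CPM with doxycycline. In the induced samples 8 of the 9 were higher in miR-10b cells and 0 lower. Over all tested genes, 14.1% passed between uninduced cells, 18.4% between induced cells and 13.9% in the average doxycycline effect. In the average doxycycline effect SPON1 rose by 0.23 (adjusted p = 1.9e-10, edgeR) and CORIN fell by 0.53 on the log2 scale (adjusted p = 1.2e-05, edgeR), and the other 7 did not pass. With miR-10b alone NKX6-1 rose as well, by 0.21 (adjusted p = 0.00772, edgeR). The part of these marker differences in those of GBX2, EN2 and OTX1 was not tested. OTX2 and LMX1B, which also define the midbrain, could not be checked, with 6.2 counts on average and 0 counts.

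Neural progenitor markers were abundant, with a summed level of 9787 to 11427 CPM over the 12 samples for a list of 7, of which PAX6, with 0.2 counts on average, did not pass the filter. In uninduced miR-10b against miR-10a cells, 3 of the 6 tested were higher (NES, SOX2 and VIM) and 2 lower (SOX1 and SOX3). In the average doxycycline effect, HES5, NES and SOX3 were lower. Of the 8 forebrain markers 5 were tested, with a sum of 24.9 to 29.6 CPM. Uninduced miR-10b cells were higher in NKX2-1 and RAX and lower in EMX2, and doxycycline changed none past the threshold on average. Of the 13 hindbrain and spinal cord markers 4 were tested, with a sum of 24.0 to 28.5 CPM, and HOXA3, HOXA4, HOXB1, HOXD3 and EGR2 were at 0 in all samples. Doxycycline changed none of the 4 past the threshold, while HOXA2 was lower in uninduced miR-10b than miR-10a cells. For listed genes with several transcripts, counts at or near 0 do not bound expression, because shared reads appear to be left out.

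The markers of other cells had low counts or were carried by few genes, and the same limit holds for those with several transcripts. Of 5 pluripotency markers only DPPA4 passed the filter, lower in uninduced miR-10b cells, and NANOG was at 0 in all samples. Of 5 neural crest markers only ERBB3 was tested, higher with doxycycline on average by 0.38 on the log2 scale (adjusted p = 0.0441, edgeR), and the list summed to 3.18 to 6.65 CPM. Of 6 neuron markers 3 were tested. SYT4 was lower and NHLH1 higher with doxycycline on average, SYT4 was higher in uninduced miR-10b cells, and the list summed to 937 to 1228 CPM. Of 10 markers of mesoderm, endoderm, kidney and ear, which also use PAX2 or PAX8, 2 were tested (LHX1 and TG), 0 were called for doxycycline or between uninduced cells, MIXL1 and WT1 were at 0, and the list summed to 20.9 to 28.2 CPM.

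Some genes that act with the organizer fell with doxycycline, WNT1 most among them. Of 26 listed partners of the isthmus 13 were tested, and in the average effect 3 fell, 0 rose and 10 did not pass (median log2 fold change 0.0002). Of all tested genes 13.9% passed in that effect. WNT1, the rostral signal of the boundary, fell from 43.0 ± 2.65 CPM to 31.5 ± 1.00 CPM with miR-10a and from 46.8 ± 1.36 CPM to 29.8 ± 2.01 CPM with miR-10b (SD, n = 3 each). Averaged over both vectors this was -0.55 on the log2 scale (standard error 0.05), with an adjusted p of 2.0e-11 by edgeR. IRX3 and SP5 fell by 0.22 and 0.21 on the log2 scale on average (adjusted p = 0.00116 and 0.00382, edgeR). With each vector alone WNT1 passed in both, IRX3 with miR-10a only and SP5 in neither, while HES1 fell past the threshold with miR-10b only. CNPY1, a regulator of FGF signalling known from the fish midbrain-hindbrain boundary, did not pass in any comparison, with 21.3 counts on average.

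The partners also differed between the vectors without doxycycline, 2 higher and 5 lower in miR-10b cells, where 14.1% of all tested genes were called. LMX1A, a roof plate and floor plate gene, was higher by 1.01 (adjusted p = 3.4e-05, edgeR) and HES1, a Notch target, by 0.44 on the log2 scale. SP5, a WNT target, was lower as well (log2 -1.50, adjusted p = 4.0e-19, edgeR), and IRX3 (-0.89), MEIS1 (-0.57), IRX2 (-0.54) and POU3F2 (-0.37) were lower too. In the induced samples IRX1 joined these, with 2 higher and 6 lower, where 18.4% of all tested genes were called. OTX2, the rostral partner of GBX2, had 6.2 counts on average on the transcript with the most counts and did not pass the filter.

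FGF receptors and feedback genes read the signal that FGF8, FGF17 and FGF18 give. Of 24 listed genes 17 were tested, and in the average doxycycline effect 1 rose, 1 fell and 15 did not pass. Of all tested genes 13.9% passed there. FLRT2, a membrane protein that binds FGF receptors and UNC5, fell by 0.28 on the log2 scale (adjusted p = 1.2e-11, edgeR) and CBL, a ubiquitin ligase that acts on receptors, rose by 0.09 (adjusted p = 0.0338, edgeR). The transcriptional FGF readouts ETV5 (0.07) and DUSP6 (-0.09) and the inhibitors SPRY1 (-0.17) and SPRY2 (0.001) had these log2 values and did not pass. FGFR1 and FGFR2 had 7.7 and 7.0 counts on average and did not pass the filter.

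Between the uninduced cells, 2 of these 17 genes were higher with miR-10b (FLRT2 by 0.48 and DUSP6 by 0.19 on the log2 scale) and 4 were lower. By the same test 14.1% of all tested genes were called. The lower genes were the inhibitors SPRY1 (-0.43), SPRY2 (-0.31) and IL17RD (-0.34) and the phosphatase DUSP4 (-0.25). In the induced samples 1 was higher (FLRT2) and 3 lower (IL17RD, SPRY1 and SPRY2), where 18.4% of all tested genes were called.

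The other FGF ligands did not pass for doxycycline, with 0 of 9 tested of 19 listed in either vector or on average. Of all tested genes 1.21% passed with miR-10a, 15.3% with miR-10b, 13.9% on average and 14.1% between the uninduced cells. Between the uninduced cells FGF11, which is not secreted, was higher with miR-10b by 0.26, whereas FGF19 (-2.45), FGF10 (-1.58), FGF9 (-0.25) and FGF2 (-0.23) were lower on the log2 scale. FGF19 was 2.11 ± 0.319 CPM in miR-10a and 0.376 ± 0.191 CPM in miR-10b cells (SD, n = 3 each). The latter is near the floor of 3 counts, 0.222 to 0.238 CPM in uninduced miR-10b samples. FGF19 and FGF10 held only 15.5 and 24.9 counts on average over the 12 samples. In the induced samples 3 were lower (FGF2, FGF10 and FGF19), where 18.4% of all tested genes were called. Of 6 PAX paralogues only PAX9 was tested, with 11.3 counts on average, and it was not called in any comparison.

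**Figure D5:**
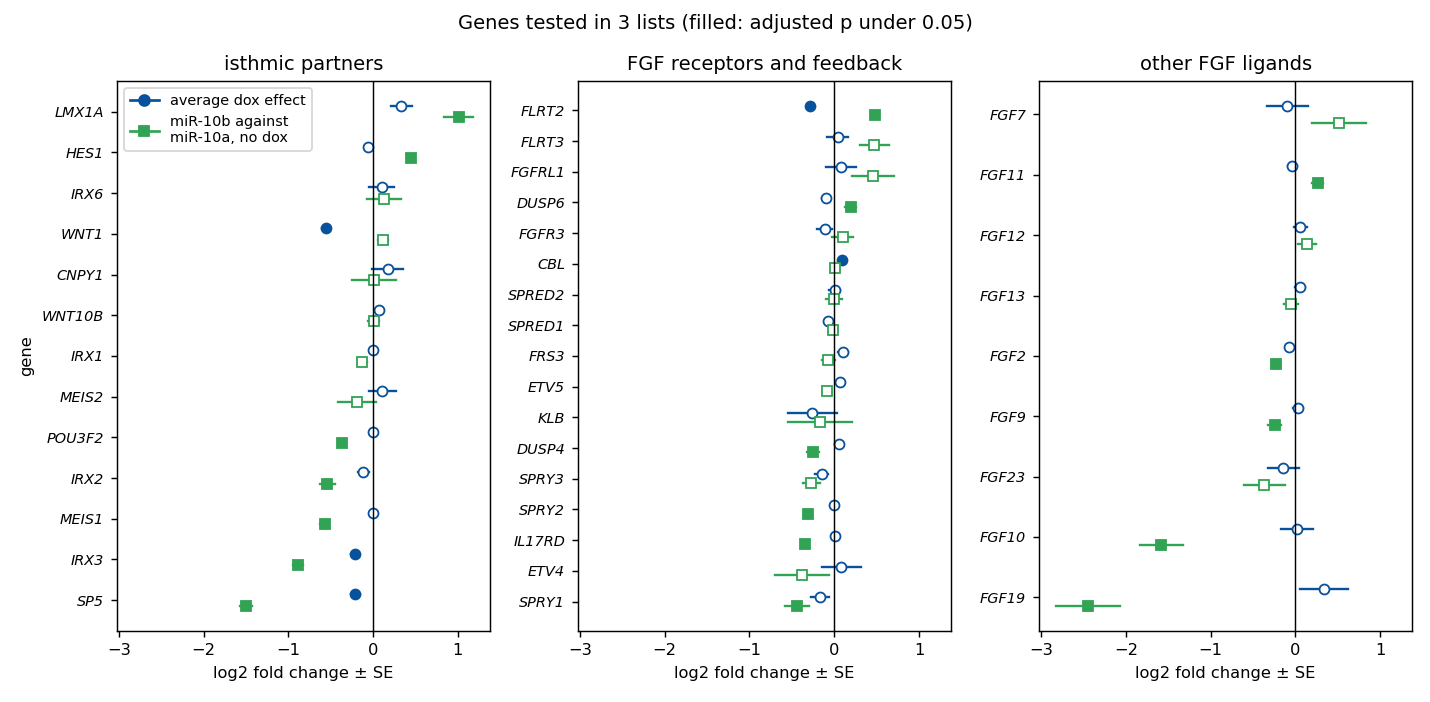
Log2 fold changes with standard errors of the tested genes of 3 lists, for the average doxycycline effect (circles) and for uninduced miR-10b against miR-10a cells (squares), filled at adjusted p under 0.05. WNT1 and FLRT2 have the lowest filled circles at -0.55 and -0.28, and FGF19, FGF10 and SP5 have the lowest filled squares at -2.45, -1.58 and -1.50. FGF19 and FGF10 rest on 15.5 and 24.9 counts on average, SP5 on 428.5.

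Beside GBX2, a list of 6 genes that the study names for this patterning was examined, of which 5 were tested. WNT1 (above), MSX1 (log2 -0.21, adjusted p = 0.0103) and NKX2-2 (log2 -0.12, adjusted p = 0.0406) fell in the average doxycycline effect by edgeR. With each vector alone WNT1 passed in both. MSX1 (adjusted p = 0.319 with miR-10a and 0.0544 with miR-10b, edgeR) and NKX2-2 (0.187 and 0.39) passed in neither. The study reports on WNT1 and MSX1 in these same samples, so the values here are not independent evidence of their direction. LMX1A (0.33, adjusted p = 0.0638) and FOXA2 (0.12, adjusted p = 0.449) did not pass by edgeR. Between the uninduced cells LMX1A was higher and NKX2-2 lower with miR-10b, and with doxycycline FOXA2 was also higher.

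The genes whose levels ran most like those of an organizer gene over the 12 samples were taken from genes with a mean above 100 counts, by Pearson's r of log2(CPM + 0.5). For GBX2 these were MTSS1L (r = 0.962), ZMYND10 (0.937) and SLIT1 (0.922), and for OTX1 they were MSI2 (0.952), NCKAP5 (0.936) and EFNB1 (0.930). For EN1 they were CEP89 (0.943), MARCH9 (0.896) and RAB22A (0.886), and for EN2 CSRNP1 (0.857), ENTPD7 (0.849) and LENG1 (0.845). For FGF18 they were MAZ (0.892), FAM46B (0.891) and GALNT18 (0.860), and for FGF17 LRP2BP (0.862), RNASET2 (0.828) and ACSL4 (0.821). Each r is the highest of at least 6974 genes over 12 points that fall into 2 vectors, and the points share library and depth, so these are descriptions. Among the organizer genes themselves, GBX2 and OTX1 had r = -0.645 and FGF17 and OTX1 r = 0.628 over the 12 samples, the most negative and the most positive of the 15 pairs, on the same points.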

How the data were processed

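The authors aligned 50-bp single-end reads to hg19 and deposited 1 file per sample with the raw count of reads on each RefSeq transcript. The submitters' processing notes name STAR, Subread and featureCounts without versions. The paper's methods give the RNeasy Mini Kit and the NuGEN Ovation RNA-Seq System with poly-A enrichment, whereas the labels name miRNeasy and Illumina kits. Each file held 51799 rows for 48101 transcripts, and 3698 repeated rows were dropped.

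The quasi-likelihood test of edgeR 4.0.16 (R 4.3.3, glmQLFTest) was fitted to the counts (4 group means, total count as library size, Benjamini-Hochberg adjustment, threshold 0.05) on the 11451 genes with a mean above 10 counts. Standard errors were derived from the F statistic. The code was tested on simulated data. Alternatives were TMM factors, DESeq2 1.42.0, other filters, summed transcripts, the replicate block, fits of the 6 samples compared, and leaving out each replicate. Summaries and sequence searches used Python 3.11.15 and pandas 2.3.3. The floor of 3 counts covers counting error only.

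The genes and lists were chosen with earlier results of these data known. All 10 organizer genes are named. Of the lists, genes past the threshold in the average doxycycline effect or between the uninduced cells are named, the 5 largest changes first, with genes the study names; other names were chosen after their values were seen. A few marker genes are not reported here by name. Likeness took the 3 genes with the highest Pearson r of log2(CPM + 0.5).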

Additional observations from a re-analysis of the deposited data

How the results depend on the processing

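Under the alternatives, GBX2 and, where tested, OTX1 kept their direction and side of the threshold in the uninduced comparison, and 0 organizer genes passed for doxycycline in each of them. The filter at a mean above 50 counts left FGF17 and OTX1 untested. The log2 fold change of FGF18 with miR-10a turned to -0.00773 with DESeq2 and -0.00556 with TMM factors. Fitting only the 6 samples compared raised the genes called for miR-10a from 139 to 275, and no filter raised those for the difference between vectors from 224 to 343. In the induced comparison 1 organizer gene in place of 2 was called with DESeq2, with a mean above 50 counts, with no filter and with the 6 samples alone. EN1 passed in the uninduced comparison with TMM factors (adjusted p = 0.0384, edgeR), a mean above 50 counts (0.0461), no filter (0.0494), the 6 samples alone (0.0225) and the replicate block (0.0475), and without miR10a NOdoxy replicate 3 (0.0136) or miR10b doxy replicate 1 (0.0465), 2 (0.0203) or 3 (0.0467). The causes were not tested. The replicate numbers did not pair the samples, with r between -0.0319 and 0.0082 for deviations of same-numbered samples. The replicate block moved the genes called for miR-10a from 139 to 166, and the 4 organizer genes it called between uninduced cells included EN1.

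Leaving out 1 replicate moved the genes called for miR-10a between 75 and 268 (268 without replicate 2 of the miR-10b doxycycline group), those for the difference between vectors between 140 and 339, and the organizer genes called in the induced comparison between 1 and 2. Signs turned within these ranges of log2 fold change. For the difference between vectors they were -0.0833 to 0.0124 for EN1, -0.186 to 0.396 for FGF17, -0.156 to 0.0729 for FGF18 and -0.109 to 0.0968 for GBX2. For the average doxycycline effect they were -0.118 to 0.00806 for EN2, -0.285 to 0.00604 for FGF17 and -0.11 to 0.00456 for FGF18. With miR-10a they were -0.483 to 0.0991 for FGF17 and -0.147 to 0.0828 for FGF18, and with miR-10b -0.297 to 0.0368 for FGF17 and -0.2 to 0.207 for OTX1. EN2 in the induced comparison ran from -0.0805 to 0.172.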
